A study of Caenorhabditis elegans with 2 samples.

Results

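Small nucleolar RNA (snoRNA) genes that lie inside protein-coding genes were examined for binding of EKL-4 in whole Caenorhabditis elegans. The genes were chosen from the annotation of the WBcel235 genome (ce11) as those of biotype snoRNA whose whole span falls within the span of a protein-coding gene, called the host. They number 216 of the 346 snoRNA genes on the nuclear chromosomes, in 192 different hosts. The other 130 snoRNA genes lie outside protein-coding genes. Of the 216, 182 are transcribed from the same strand as their host, 33 from the opposite strand, and 1 lies in a pair of hosts of both strands. A total of 170 lie wholly in introns and 46 overlap an exon of a host transcript. Their lengths run from 54 to 325 bp.

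The assay was chromatin immunoprecipitation with sequencing (ChIP-seq) using an antibody against GFP. The strain, RW12207, carries st12207[ekl-4::TY1::EGFP::3xFLAG] on chromosome I, made by insertion with CRISPR, so the protein followed is the tagged EKL-4. Young adults were taken at 65 h, synchronised through starved first-stage larvae, and there are 2 biological replicates of this 1 group. Whole animals mix all tissues, so a summit gives no cell type, and no comparison between conditions could be made.

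EKL-4 is related to DMAP1, which in other species is shared by histone acetyltransferase complexes of the NuA4/TIP60 type and histone exchange complexes of the SWR1 type. Box C/D snoRNAs guide methylation of the ribose in ribosomal RNA, and box H/ACA snoRNAs guide the conversion of uridine to pseudouridine. Many animal snoRNAs are cut out of the introns of host transcripts, whereas others have a promoter of their own. Short genes with their own promoter can carry a proximal sequence element (PSE), the upstream element of small nuclear RNA (snRNA) genes, or the A box and B box that recruit RNA polymerase III at tRNA genes.

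A snoRNA gene, like any other gene, counted as bound where a peak summit fell within 500 bp of its 5′ end. The main list of peaks was the conservative one, in which the authors ranked the peaks of both replicates against each other. It holds 2482 peaks, whose signal, the strength the authors' caller gave a peak relative to a control, has a median of 108 and a highest value of 1259. Distances are in bp from the snoRNA's 5′ end, and negative ones are upstream.

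The sequences around the 5′ ends are shown because 2 arrangements of short elements recurred at the members with summits. They were taken by signal among members with a main summit on chromosomes II, III, IV and V, the strongest 3 on same-strand and 2 on opposite-strand hosts for each arrangement. Where 2 members share a summit, as C51F7.3 and C51F7.4 do, only the one closer to it was taken. Each is the 135 bases from 110 before the 5′ end to 25 from it on, 5′ to 3′ on the snoRNA's strand, from the RefSeq copy of WBcel235. In the first 5, capitals mark a PSE-type pair, AACNCG followed 5 bases later by TGTCNG.
ZK994.7 (chrV:8500469-8500603, plus strand, same-strand host pxn-1): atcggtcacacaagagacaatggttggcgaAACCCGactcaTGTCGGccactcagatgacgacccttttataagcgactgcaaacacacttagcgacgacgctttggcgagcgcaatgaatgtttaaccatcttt
C08D8.3 (chrV:8348998-8349132, plus strand, same-strand host C08D8.1): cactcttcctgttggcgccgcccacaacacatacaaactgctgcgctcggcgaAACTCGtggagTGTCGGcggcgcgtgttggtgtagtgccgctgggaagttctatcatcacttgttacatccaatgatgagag
C16D9.11 (chrV:8228945-8229079, minus strand, same-strand host rol-3): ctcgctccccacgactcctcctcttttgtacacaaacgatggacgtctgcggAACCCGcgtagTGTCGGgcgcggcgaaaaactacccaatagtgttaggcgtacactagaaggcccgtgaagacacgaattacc
Y55F3BR.9 (chrIV:867109-867243, minus strand, opposite-strand host Y55F3BR.2): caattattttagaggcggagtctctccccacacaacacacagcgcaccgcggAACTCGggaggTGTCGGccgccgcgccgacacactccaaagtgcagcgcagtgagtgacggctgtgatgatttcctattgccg
C07A9.14 (chrIII:9717270-9717404, plus strand, opposite-strand host ncx-7): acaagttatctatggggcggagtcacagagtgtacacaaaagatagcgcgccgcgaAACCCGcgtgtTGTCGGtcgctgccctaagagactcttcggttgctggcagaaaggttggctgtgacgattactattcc
In these 5 genes the pair lies in the stretch before the gene. Only matches on the snoRNA's strand were taken, so the direction of the pair in these genes was set by the search.

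In the next 5 sequences, capitals mark a match to an A–B box pair, TGGNNNAG followed by GTTCNANNC after 20 to 75 bases. The A box and B box of a tRNA gene lie inside the tRNA, but here the pair lies before the annotated snoRNA.
C51F7.3 (chrV:12303598-12303732, plus strand, same-strand host frm-7): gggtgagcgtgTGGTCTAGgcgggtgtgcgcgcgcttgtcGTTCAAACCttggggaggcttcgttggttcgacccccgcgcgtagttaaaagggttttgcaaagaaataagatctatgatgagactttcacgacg
F55A11.10 (chrV:11782882-11783016, plus strand, same-strand host F55A11.6): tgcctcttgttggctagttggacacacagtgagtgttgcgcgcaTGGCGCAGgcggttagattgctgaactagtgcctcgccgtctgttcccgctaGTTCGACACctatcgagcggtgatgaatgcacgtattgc
T24H7.6 (chrII:6248607-6248741, plus strand, same-strand host T24H7.2): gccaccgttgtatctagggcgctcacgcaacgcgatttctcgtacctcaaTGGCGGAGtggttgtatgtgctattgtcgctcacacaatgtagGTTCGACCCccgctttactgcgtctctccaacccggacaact
T03F7.8 (chrV:11314148-11314282, plus strand, opposite-strand host cutl-18): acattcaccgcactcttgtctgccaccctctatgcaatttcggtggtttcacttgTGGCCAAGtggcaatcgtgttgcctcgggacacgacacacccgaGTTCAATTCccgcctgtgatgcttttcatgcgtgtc
C04G6.12 (chrII:5105207-5105341, minus strand, opposite-strand host mpk-2): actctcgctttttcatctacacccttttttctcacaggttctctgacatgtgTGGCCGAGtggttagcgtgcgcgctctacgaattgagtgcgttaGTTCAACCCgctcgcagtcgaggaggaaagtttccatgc
The pair in C51F7.3 ends at the first match to the second part, and another stretch of this type follows it. The last sequence has neither pair, and is shown because its summit lies on the side of the host's start.
Y24D9A.9 (chrIV:4390284-4390418, minus strand, same-strand host rpl-7A): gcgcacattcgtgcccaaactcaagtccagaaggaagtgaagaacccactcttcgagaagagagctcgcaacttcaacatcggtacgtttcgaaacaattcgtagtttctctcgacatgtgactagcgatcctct
All 11 of these genes had a main summit, and they were picked to show the elements, so their values are no measure of how often elements and summits go together. The letters of both pairs were settled after looking at windows of members with summits. That limits every count of pairs among the hosted genes given further on.

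Of the 216 hosted snoRNA genes, 60 had a main summit (27.8%, 95% Wilson interval 22.2 to 34.1). Over all 46890 nuclear genes the share was 4.83%, or 2266 genes, and over the 19973 protein-coding genes it was 5.96%. The snoRNA genes outside protein-coding genes had one in 43 of 130 cases (33.1%, interval 25.6 to 41.5), which overlaps the interval of the hosted genes. Intervals cover counting error over genes only. Genes are not biological replicates, and 20 of the 192 clusters of members within 1000 bp hold more than 1 of them. The 60 genes drew on 58 different summits.

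Several other classes of small RNA gene inside protein-coding genes were counted the same way. Hosted tRNA genes had a summit in 116 of 290 cases (40%, interval 34.5 to 45.7) and hosted snRNA genes in 24 of 63 (38.1%, interval 27.1 to 50.4). The share was 13.2% for hosted miRNA genes (14 of 106), 5.95% for hosted genes of the class ncRNA (202 of 3393) and 0.425% for hosted piRNA genes (25 of 5878). In the main list the interval of the hosted snoRNA genes thus lay above those of the hosted miRNA, ncRNA and piRNA genes. It lay just below that of the hosted tRNA genes, and overlapped that of the hosted snRNA genes. The order against tRNA genes did not hold in the list of either replicate alone, where these intervals overlapped. Hosted tRNA and snoRNA genes had 19.7% and 20.8% in replicate 1, and 33.1% and 27.8% in replicate 2. The interval of the hosted miRNA genes, at 11.3% in both, overlapped that of the hosted snoRNA genes in replicate 1 and lay below it in replicate 2. Those of the hosted ncRNA and piRNA genes lay below it in both. As a further measure of the surroundings, 2.11% of the bases in protein-coding gene spans lie within 500 bp of a main summit. Among the bases of those spans over 500 bp from every protein-coding 5′ end, the share is 1.46%.

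**Figure D1:**
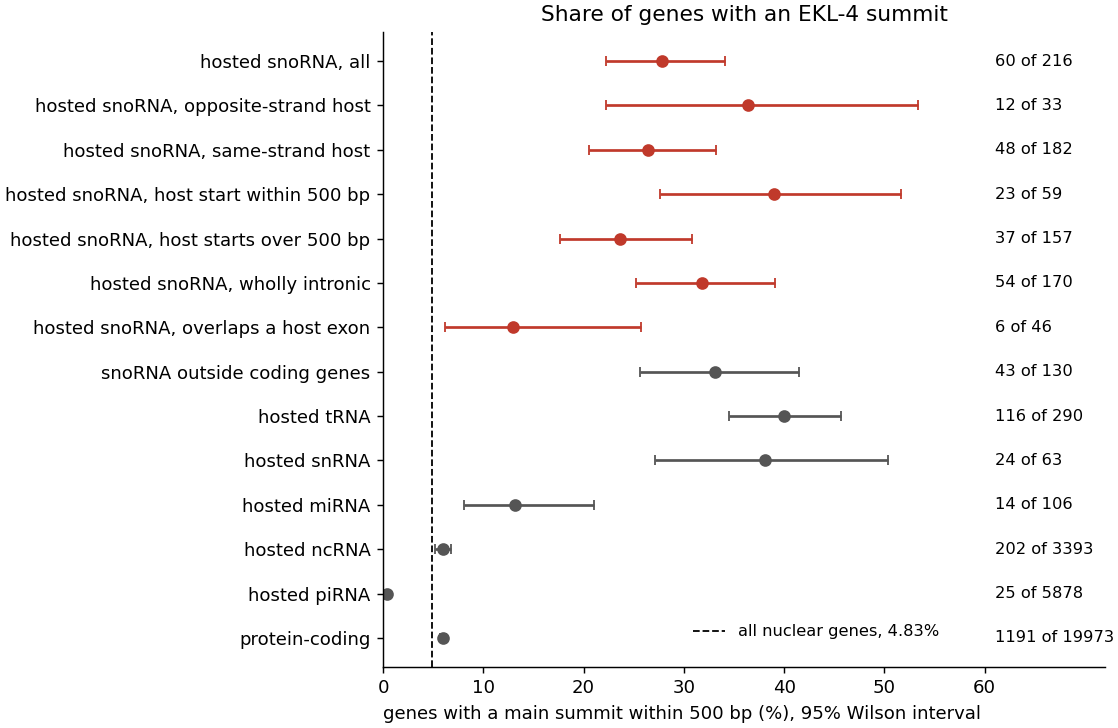
Share of genes with a main EKL-4 summit within 500 bp of the 5′ end, in percent, with 95% Wilson intervals; hosted snoRNA genes and their subsets are in red, other classes in grey, and the dashed line is the share over all nuclear genes. The hosted snoRNA subsets drawn here lie above the dashed line of 4.83%, and the lowest of those drawn is that of the genes that overlap a host exon, at 13.0%.

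The strongest summit at a hosted snoRNA gene belonged to ZK994.7 (chrV:8500579-8500645), in pxn-1, which encodes a peroxidasin, an enzyme of the extracellular matrix. Its signal was 609 in the main list, 240 in the replicate 1 list and 369 in the replicate 2 list. The main summit lay at −13 bp, and the nearest start of a pxn-1 transcript was 5690 bp away. This gene therefore had a summit in each list, all of them at the snoRNA and far from the host's start.

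C51F7.3 (chrV:12303708-12303783) and C51F7.4 (chrV:12303599-12303693) lie one behind the other in frm-7, a gene for a FERM-domain protein. They share the next strongest summit, with a signal of 513 in the main list, 187 in replicate 1 and 313 in replicate 2. That summit is at −49 bp from C51F7.3 and at 60 bp from C51F7.4. The A–B box pair of C51F7.3 falls within the annotated body of C51F7.4, so it is 1 match counted for both genes.

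Of the 15 genes with the strongest main summits, 3 lay in hosts for ribosomal proteins, and their summits sat to the side. Y24D9A.9 in rpl-7A had a signal of 422 in the main list, 197 in replicate 1 and 244 in replicate 2, with the main summit at −352 bp from the snoRNA and 70 bp from a protein-coding start. F54E7.10 in rps-12 had 352, with 167 in replicate 1 and 198 in replicate 2, at −238 bp and 135 bp from a coding start. Y43B11AR.7 in rps-4 had 227, with 72.7 in replicate 1 and 144 in replicate 2, at 368 bp and 154 bp from a coding start. In all 3 the summit was nearer to a protein-coding start than to the snoRNA.

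The 5 remaining same-strand genes among the 15 had summits at the snoRNA itself, in hosts of varied function. Y37E3.20 on chromosome I, in pcyt-2.1, had a main signal of 369 at −18 bp, with 142 in replicate 1 and 196 in replicate 2. C08D8.3 (chrV:8349108-8349187) had a main signal of 263 at −6 bp, with 102 in replicate 1 and 152 in replicate 2. C16D9.11, in the receptor tyrosine kinase gene rol-3, had a main signal of 262 at −8 bp, with 107 and 158 in replicates 1 and 2. Its nearest host start was 9440 bp away, so that the summit cannot be counted for that start. W04D2.7, in the innexin (gap junction) gene inx-11, had a main signal of 251 at −16 bp, with 89.8 in replicate 1 and 165 in replicate 2. F54F11.6, in the chemoreceptor gene sre-45, had a main signal of 222 at 130 bp, with 87.0 in replicate 1 and 113 in replicate 2. All 5 had a summit in both replicate lists, and in all 5 the replicate 2 signal was the higher one.

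Most summits lay close to the snoRNA 5′ end. Over the 60 genes the nearest main summit lay at a median of −17.5 bp (95% interval of the median −43.0 to −4.00, quartiles −61 and 62.2). It was upstream of the 5′ end in 40 of 60 genes, and 30 of 60 fell in the 100 bp just upstream. In the replicate lists the median was −17.0 bp in replicate 1 (interval −31.0 to 14.0) and −29.0 bp in replicate 2 (interval −46.0 to 5.00), so that in either list alone the interval includes the 5′ end itself. Within 150 bp on either side were 43 of 60 (71.7%). The distance to the snoRNA was smaller than the distance to any protein-coding start in 45 of 60. In 36 of the 60 genes the summit lay over 500 bp from every such start. Since chromatin was sheared to 200 to 800 bp, distances of this size are below the length of a fragment.

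Positions are given separately for members far from and near to a start of their host. Of the 157 genes over 500 bp from every transcript start of the host, 37 had a summit (23.6%, interval 17.6 to 30.8). Of these 37, 31 lay within 150 bp of the snoRNA 5′ end, and 34 were nearer to the snoRNA than to a coding start. The count of nearer summits is partly fixed by the rule, here and over all 60 genes with a summit. For a gene over 1000 bp from every coding start, a summit within 500 bp has to be nearer to the snoRNA. Of the 59 genes with a host start within 500 bp, 23 had a summit (39.0%, interval 27.6 to 51.7). Of these 23, 12 lay within 150 bp, and 12 were nearer to a coding start. The intervals of the shares overlap, and near a host start a summit can count for both genes. When a summit could count for the closest gene 5′ end alone, the share near a host start was 22.0%, and with replicate 1 alone it was 25.4%. The median position of the 37 was −15 bp, and in the lists of replicates 1 and 2 alone that of the genes far from a host start was 1.00 and −10.5 bp.

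**Figure D2:**
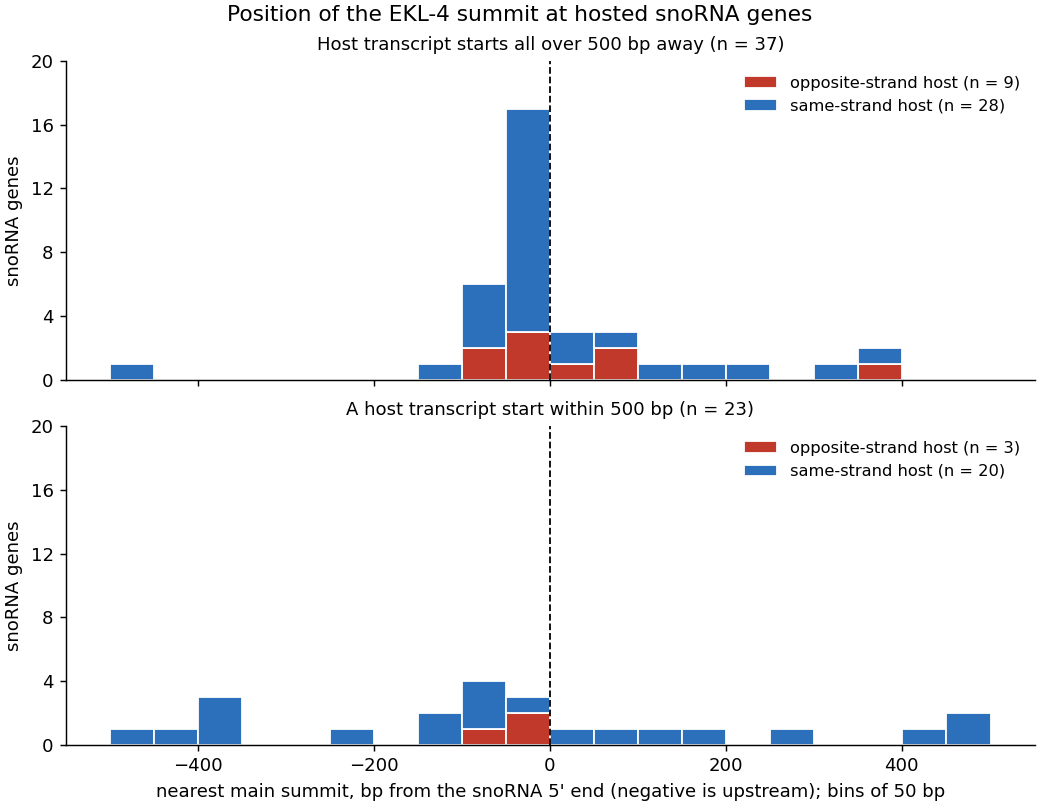
Distance of the nearest main summit from the snoRNA 5′ end, in bp, for the 37 genes whose host starts are all over 500 bp away (top) and the 23 with a host start within 500 bp (bottom), stacked by host strand. In the top panel the summits pile up just upstream of the 5′ end, whereas in the bottom panel they spread over the whole window.

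With growing distance from the host start the share did not fall to the level of all genes. It was 9 of 29 (31.0%) from over 500 up to 1000 bp, 14 of 46 (30.4%) up to 2000 bp, 8 of 60 (13.3%) up to 5000 bp and 6 of 22 (27.3%) beyond 5000 bp. The interval of the third bin, 6.91 to 24.2, overlaps those of its neighbours, so no order of the bins is given. The longest distance among genes with a summit was that of M106.6, in mix-1, the gene of a condensin subunit. Its nearest host start was 16071 bp away, and it had a main signal of 168 at −77 bp, with 73.4 in replicate 1 and 105 in replicate 2.

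Among the 33 snoRNA genes on the strand opposite to the host, 12 had a main summit (36.4%, interval 22.2 to 53.4). Among the 182 on the same strand, 48 did (26.4%, interval 20.5 to 33.2). These intervals overlap. In genes over 500 bp from every host start the counts were 9 of 25 on the opposite strand (36%, interval 20.2 to 55.5) and 28 of 131 on the same strand (21.4%, interval 15.2 to 29.2). A snoRNA on the opposite strand is not part of its host's transcript. The summit lay within 150 bp of the snoRNA in 11 of 12 on the opposite strand and in 32 of 48 on the same strand.

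The 5 opposite-strand genes with the strongest summits were examined one by one. T03F7.8 (chrV:11314258-11314332), in the cuticlin-like gene cutl-18, had a main signal of 304 at −55 bp, with 115 in replicate 1 and 197 in replicate 2. B0334.12 (chrII:11484683-11484752), in the potassium channel gene twk-5, had a main signal of 238 at 86 bp, with 71.3 in replicate 1 and 175 in replicate 2. ZK484.9, on chromosome I in haf-9, a gene for an ABC transporter, had a main signal of 227 at −4 bp, with 84.1 in replicate 1 and 132 in replicate 2. These 3 had a summit close to the snoRNA in both replicate lists.

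Y55F3BR.9 (chrIV:867056-867133) lies in Y55F3BR.2, with a main signal of 218 at −15 bp, 88.0 in replicate 1 and 132 in replicate 2. C04G6.12 (chrII:5105157-5105231), in mpk-2, a MAP kinase gene, had a main signal of 205 at −7 bp, with 82.5 in replicate 1 and 116 in replicate 2. The 1 exception to the close position was C27H5.10, in pdl-1, whose summit at 371 bp is shared with its neighbour C27H5.9, where it lies at −43 bp.

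Genes wholly in introns had a summit in 54 of 170 cases (31.8%, interval 25.2 to 39.1), and those that overlap a host exon in 6 of 46 (13.0%, interval 6.12 to 25.7). The 2 intervals overlap slightly. By chromosome the counts were 8 of 44 on I, 15 of 43 on II, 11 of 44 on III, 11 of 36 on IV and 15 of 39 on V. None of the 10 genes on X had one, which allows a share of up to 30.0%.

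The hosts' own starts were also counted. Of the 192 hosts, 46 had a main summit within 500 bp of a transcript start (24.0%, interval 18.5 to 30.5), against 6.42% of all protein-coding genes (1282 of 19973) counted in this way. A summit at a snoRNA near a host start counts for the host too, and a gene with more transcript starts has more chances. Neither was taken out of this comparison. Hosts for ribosomal proteins were taken by names that start with rpl-, rps- or rla-. The gene ubl-1, whose product includes a ribosomal protein, is therefore among the other hosts. The 13 hosts for ribosomal proteins had a summit at a start in 9 cases (69.2%, interval 42.4 to 87.3) and the other 179 hosts in 37 (20.7%, interval 15.4 to 27.2). A snoRNA gene whose host start had a summit had one itself in 28 of 61 cases (45.9%, interval 34.0 to 58.3). Where the host start had none, the count was 32 of 155 (20.6%, interval 15 to 27.7), and 30 of those 32 lay within 150 bp of the snoRNA. Some of the 28 are 1 summit counted for both genes.

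The hosts for ribosomal proteins hold 19 of the members, and 7 of these had a summit (36.8%, interval 19.1 to 59.0). Only 2 of the 7 lay within 150 bp of the snoRNA. One of those 2, C16A3.11 in rps-13, had the weakest nearest summit of all 60, with a signal of 5.91 at 95 bp. The other was F54E7.11 in rps-12, with 69.8 at −60 bp. The 2 members nearest to the window on its outside were also in such hosts, F28D1.13 in rps-23 with its nearest main summit at 506 bp and R151.11 in rpl-6 at −514 bp. The next one, D1054.17 in D1054.3 at −526 bp, was not. Just inside it were C04A2.16, in egl-27, at −478 bp and JC8.15, in tag-115, at −499 bp.

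The replicate lists were compared next. In the list of replicate 1, 45 of the 216 genes had a summit (20.8%, interval 16.0 to 26.7), where all nuclear genes had 3.13%. In that of replicate 2, 60 did (27.8%, interval 22.2 to 34.1), where all nuclear genes had 3.73%. The larger deposited list gave 63 (29.2%), where all nuclear genes had 5.33%. On the opposite strand the counts were 9 of 33 in replicate 1 and 12 of 33 in replicate 2, and on the same strand 36 of 182 and 48 of 182. Each list thus had a share of hosted snoRNA genes several times that of all genes.

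Of the 60 genes with a main summit, 37 had one in both replicate lists (61.7%), 4 in replicate 1 alone, 13 in replicate 2 alone and 6 in neither. Among all 2266 nuclear genes with a main summit, 47.4% had one in both lists and 23.5% in neither. These genes include the members. The median main signal of the 6 in neither list was 89.6, below that of the whole list. Over the 37, the summits of the replicates were a median of 20 bp apart (range 5.00 to 533), and 31 lay within 50 bp of each other. The signal of replicate 2 was higher in 34 of 37, by a median factor of 1.50. The medians of the whole lists, which differ in length, were 73.2 in replicate 2 and 61 in replicate 1, and the paired factor at other genes was not computed.

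Of the 6 genes with a main summit and none in either replicate list, 4 are named by the rule for named genes, and 3 of the 4, all but K07C5.11, had the same summit in the larger deposited list. H06I04.9, in ubl-1, whose product joins a ubiquitin-like protein to a ribosomal one, had a main signal of 110 at −399 bp. K07C5.11 had a summit at −402 bp in nol-56, the gene of a core protein of box C/D snoRNA particles. C14C10.8 in ril-2 had 94.8 at −113 bp, and the member opposite to the polycystin gene pkd-2 had 84.4 at 69 bp. Their signals are near or below the list median of 108.

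Another 13 genes had a summit in a replicate list and none in the main one, 3 in replicate 1 alone, 9 in replicate 2 alone and 1 in both. F38E11.14, in the ion channel gene cng-3, had a replicate 2 summit of signal 122 at −43 bp, and no ranked peak of replicate 1 within 500 bp. Y43F8C.22 had a replicate 1 summit of signal 104 at 14 bp, and no ranked peak of replicate 2 there. R151.11 in rpl-6 had a replicate 2 summit of 117 at −499 bp, which the main list places just beyond the window. C05H8.3, opposite to the kinase gene ckk-1, had a replicate 2 summit of 69.3 at 53 bp. Beside K07C5.11, nol-56 holds 3 further members, K07C5.10, K07C5.12 and K07C5.18, each with a summit in replicate 2 alone. K07C5.10 and K07C5.18 share 1 summit, of signal 54.8, at 219 and −222 bp.

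The lists of ranked peaks, which hold 49388 peaks in replicate 1 and 90719 in replicate 2 before any threshold, show the weaker signal. All 60 genes with a main summit had a ranked peak within 500 bp in each replicate, with a median of the strongest signal of 68.8 in replicate 1 and 91.9 in replicate 2. The main list ranks the peaks of both replicates against each other. A peak in each replicate, and a high signal, therefore follow largely from how that list was made. The 156 genes without a main summit had a ranked peak within 500 bp in 105 cases in replicate 1 and 117 in replicate 2. Such peaks were common at other genes too. All nuclear genes had one in 30.9% of cases in replicate 1 and 49.2% in replicate 2, and protein-coding genes in 41.2% and 64.0%. With genes that had none set to 0, the medians of the 156 genes were 15.7 and 24.7. For all nuclear genes both medians were 0, and for protein-coding genes they were 0 and 15.5.

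**Figure D3:**
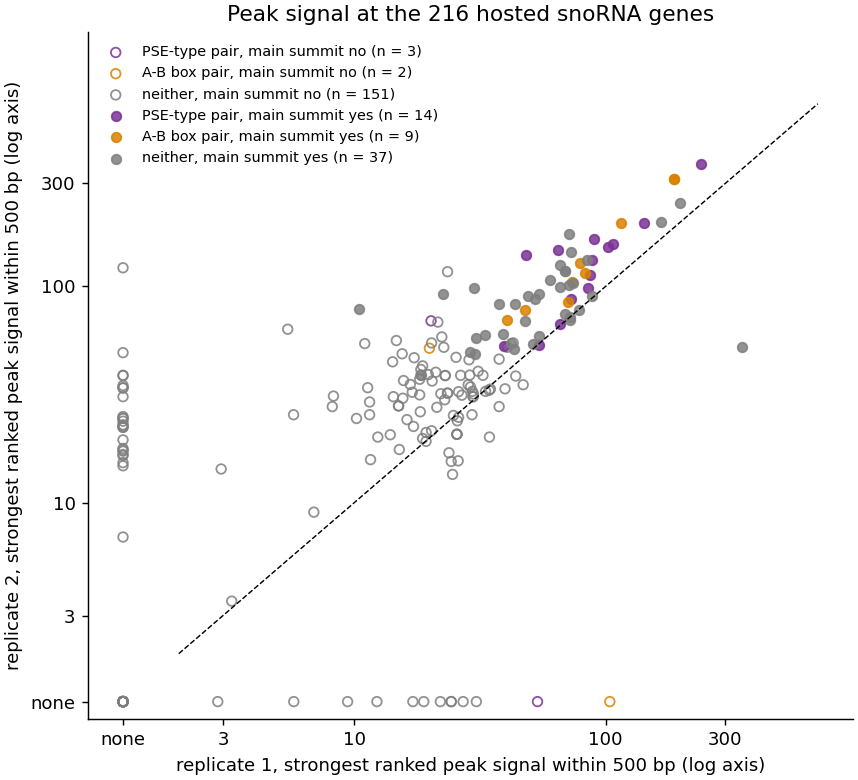
Strongest ranked peak signal within 500 bp of the 5′ end in replicate 1 (x) and replicate 2 (y), both on log axes, for the 216 hosted snoRNA genes; filled points have a main summit, colours give the sequence element, the dashed line marks equal signal, and genes with no peak stand at "none". The filled points form the upper end of 1 cloud, and most of them lie above the dashed line. The point far to the right is C06A1.9, with 349 in replicate 1 and 52.4 in replicate 2. Its replicate 1 summit lies at −497 bp, just inside the window. The nearest summit in the replicate 2 list, of signal 459, lies at −519 bp, outside the window, so the 2 values are not of the same peak.

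The elements shown at the start were counted in a window of 300 bp, from 250 bp before the 5′ end to 50 bp from it on, on the snoRNA's strand. The PSE-type pair was present in 17 of 216 members (7.87%), and 14 of these 17 had a main summit (82.4%, interval 59.0 to 93.8). Its centre lay at a median of −50.0 bp, between −72.0 and −46.0 in all 17. On the other strand 2 members had it. In windows of the same length at protein-coding genes it was present in 19 of 19973 (0.0951%), with 19 also on the other strand, and 3 of these 19 had a summit.

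The snoRNA genes outside protein-coding genes and the snRNA genes were not used to settle the letters. Outside protein-coding genes, 16 of 130 snoRNA genes had the PSE-type pair, and 11 of the 16 had a summit (68.8%, interval 44.4 to 85.8), against 32 of the 114 without the pair (28.1%, interval 20.6 to 36.9). Its centre was between −69.0 and −49.0 bp in all 16. Of 129 snRNA genes, 21 had it, with centres between −54.0 and −47.0 bp, and 20 of the 21 had a summit (95.2%, interval 77.3 to 99.2). Of the 108 snRNA genes without the pair, 35 did (32.4%, interval 24.3 to 41.7). The 2 intervals do not overlap in either of these classes. Other small RNA classes, also not used for the letters, had lower shares with the pair. A summit was found at 7 of 21 such ncRNA genes (33.3%, interval 17.2 to 54.6) and 1 of 65 piRNA genes (1.54%, interval 0.272 to 8.21). Without the pair these classes had 6.79% and 0.451%. Of miRNA and tRNA genes with the pair, 1 of 2 and 0 of 1 had a summit. Some snRNA genes are near-identical copies of each other, so their counts are not of independent sequences.

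At the hosted genes with the PSE-type pair most summits lay on the gene's side of it. The summit was a median of 38.5 bp closer to the gene than the centre of the PSE-type pair, and on that side in 12 of 14. The pair was found with a summit in 4 of 5 opposite-strand members that have it and in 10 of 12 same-strand members. C07A9.14, opposite to the sodium-calcium exchanger gene ncx-7, had a main signal of 176 at 23 bp, with 72.6 in replicate 1 and 87.6 in replicate 2. The annotation gives smy-2, 1 of the 14, the biotype snoRNA, although SmY RNAs are known in nematodes as small nuclear RNAs tied to trans-splicing. It had a main signal of 108 at −88 bp and a summit in replicate 1 and not in replicate 2.

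The A–B box pair was present in 11 of 216 members (5.09%), on no member's other strand, and 9 of the 11 had a main summit (81.8%, interval 52.3 to 94.9). Of the 9, 2 share the match and the summit in frm-7. Its centre lay at a median of −32.0 bp, and the summit was on the gene's side of it in 3 of 9, at a median of −1.50 bp from the centre. At the snoRNA genes outside protein-coding genes it was present in 8 of 130, of which 6 had a summit (75%, interval 40.9 to 92.9). At protein-coding genes it was present in 40 of 19973 (0.200%), of which 3 had one. Both opposite-strand members with this pair, T03F7.8 and C04G6.12, had a summit, as did 7 of 9 same-strand members.

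No member had an annotated tRNA gene start within 500 bp, and 1 had an snRNA gene start. F55A11.10 had a main signal of 202 at −76 bp, with 79.4 in replicate 1 and 129 in replicate 2. Its summit was nearer to a protein-coding start, 48 bp away, than to the snoRNA. T24H7.6 had 186 at −61 bp, with 70.9 in replicate 1 and 84.9 in replicate 2. Genes of the class ncRNA started within 500 bp of 42 members, 22 of which had a summit. In the 174 members with none there, 38 had a summit (21.8%), and the part of these neighbours in the counts was not tested.

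**Figure D4:**
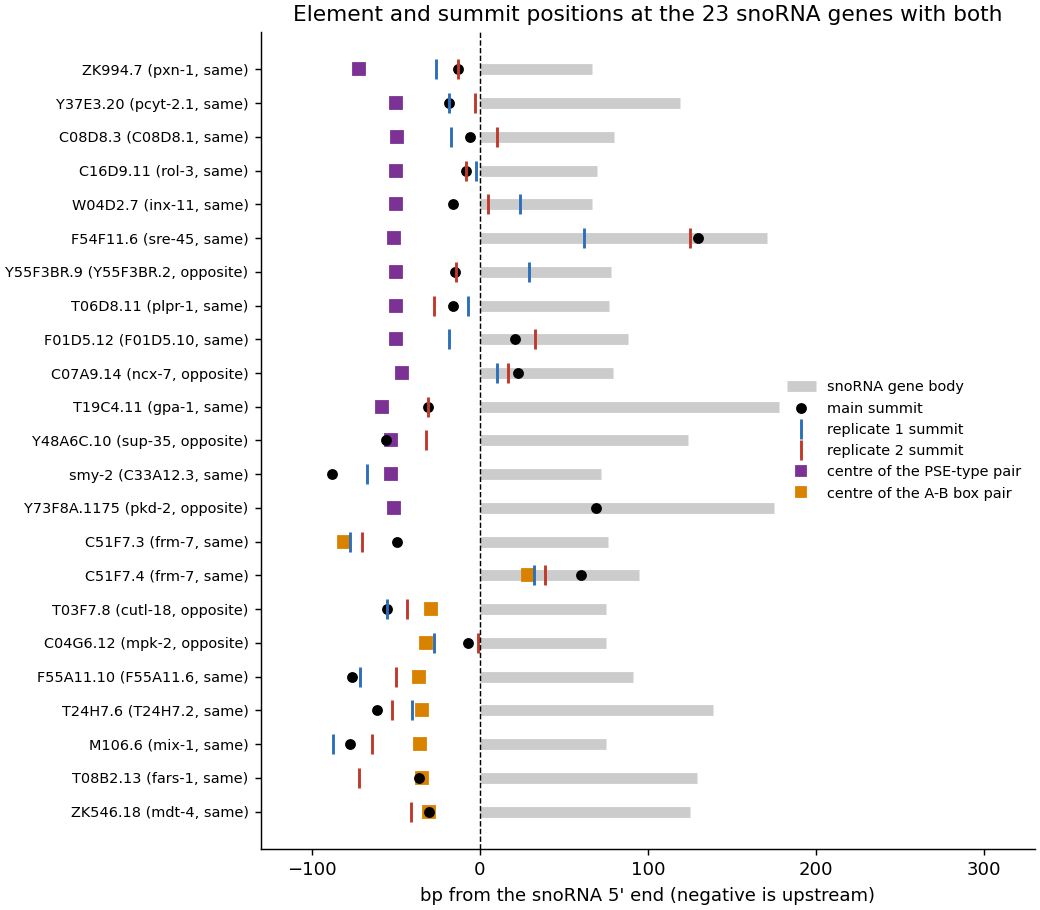
Positions in bp from the snoRNA 5′ end at the 23 hosted snoRNA genes with a main summit and an element pair, with the host and its relative strand in brackets; squares are centres of the pair, black dots main summits, blue and red ticks summits in the lists of replicates 1 and 2, and grey bars the gene bodies. The PSE-type pairs stand in 1 column near −50 bp, and all 23 main summits lie within 150 bp of the 5′ end.

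Together the pairs were in 28 members, of which 23 had a main summit, all within 150 bp of the 5′ end. In members over 500 bp from every host start, 20 of the 24 with a pair had a summit (83.3%, interval 64.1 to 93.3), against 17 of the 133 with neither pair (12.8%, interval 8.14 to 19.5). With a host start within 500 bp the counts were 3 of 4 and 20 of 55 (36.4%, interval 24.9 to 49.6). Outside protein-coding genes they were 17 of 24 (70.8%, interval 50.8 to 85.1) and 26 of 106 (24.5%, interval 17.3 to 33.5). The hosted counts are a description, since the letters came from them, and the last pair of counts is the one that did not enter that choice.

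**Figure D5:**
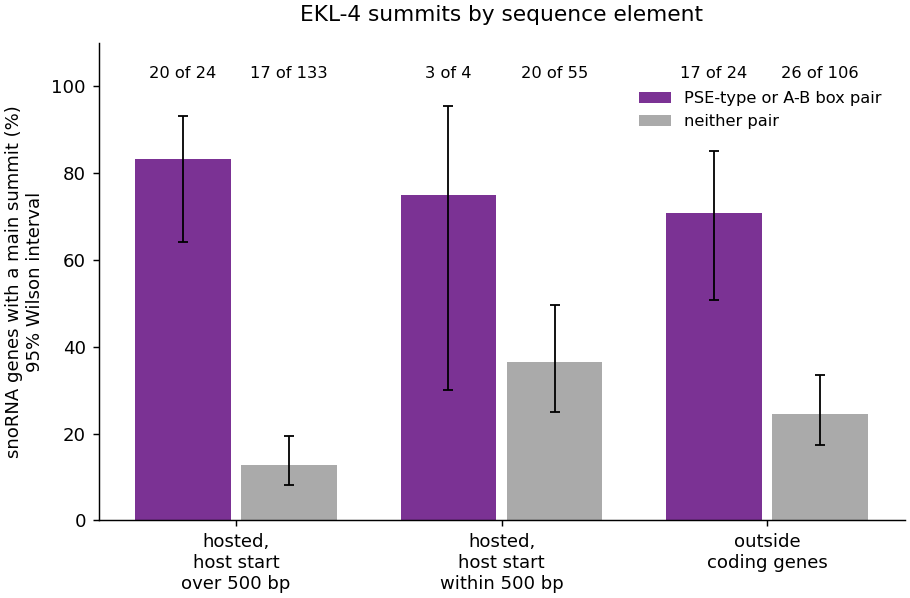
Percent of snoRNA genes with a main summit, with 95% Wilson intervals, for genes with a PSE-type or A–B box pair (purple) and with neither (grey), by where the gene lies; counts stand above the bars. The lowest bar is that of hosted genes far from a host start with neither pair, 17 of 133.

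The ranked peaks come from the same libraries at the same genes, and the letters were settled on members with strong peaks, so their signals only describe the members by element. Members with the PSE-type pair had median signals of 72.6 in replicate 1 and 113 in replicate 2, and those with the A–B box pair 79.4 and 105. Members with neither and no host start within 500 bp had 17.3 and 27.8, and those with neither and a host start there 25.7 and 38.9. The quartiles of replicate 1 were 53.6 and 89.8 with the PSE-type pair, and 0 and 26.0 with neither pair far from a host start.

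The 5 members with a pair and no main summit were of mixed kinds. C02C6.13, on X in lron-3, had no ranked peak within 500 bp in either replicate. Y73B6A.14 had one of signal 53.6 in replicate 1 and none in replicate 2. The other 3, C05H8.3, Y43F8C.22 and R166.7, had a summit in 1 thresholded replicate list each.

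The 17 genes with a summit, neither pair and no host start within 500 bp include B0334.12, ZK484.9 and Y43B11AR.7, and 11 of the 17 summits lay within 150 bp of the snoRNA. Part of the close summits thus had neither letter pattern. Members were put in the C/D class by TGATGA in the first 20 bases and CTGA in the last 15. They were put in the H/ACA class by ACA 3 bases before the annotated end alone, with no other box searched. These exact letters placed 9 members in the C/D class, 3 with a summit, and 48 in the H/ACA class, 20 with a summit (41.7%, interval 28.8 to 55.7). The 159 left in neither class had a summit in 37 cases (23.3%, interval 17.4 to 30.4). Most members were thus not classified, and 16 of the 17 members with a PSE-type pair were among them. The intervals of the H/ACA class and of those in neither class overlap. In members over 500 bp from every host start the H/ACA count was 7 of 25 (28.0%, interval 14.3 to 47.6). For those in neither class it was 28 of 126 (22.2%, interval 15.8 to 30.2). Of the 20 summits in the H/ACA class, 11 lay within 150 bp of the snoRNA.

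Other motifs were searched on both strands of the same window. CTGCGTCTC was in 5 of 216 members (2.31%), against 2.93% of protein-coding windows. An E2F-type site (TTCCCGC, or TTCGCGC, or TTGCCGC, or TTGGCGC) was in 25 (11.6%), against 9.20%. A stricter A box (TGGCN followed at once by NAGNGG) was in 11 (5.09%), against 0.320%, and a stricter B box (GGTTC followed at once by GANNCC) in 4 (1.85%), against 0.165%. For the first motif and the E2F type, the share in protein-coding windows lies within the interval of the members.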

How the data were processed

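ChIP-seq peak lists of 2 biological replicates of 1 group were used. Peaks on ce11 were called against a control and put in order by irreproducible discovery rate (IDR) by the authors, per the text files deposited with them. The sources used here do not give the aligner or peak caller. The signal deposited for a peak is its strength over the control, on a scale the authors do not state, and was compared within a list or between both replicate lists side by side. A summit is the peak start plus the deposited offset. Read depth is unknown, and the control libraries were not analysed here.

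Genes came from the Ensembl 115 annotation of WBcel235, and mitochondrial genes and peaks were left out. A gene's 5′ end was that of its gene record, and a host's starts those of all its transcripts. The same summit could serve several genes. Counts are given with 95% Wilson intervals, a count of 0 with the limit of 3 counts, and no p-values. Repeated sequence was a 201 bp window with 10% or more of its 31-mers repeated in the genome, found at 5 of the 60 summits. Procedures were tested on simulated data with planted summits and elements.

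The members and lists were chosen with earlier results of these data known. The PSE-type pair, the A–B box pair and the B box counted with or without an A box were chosen after seeing windows of members with summits. Named genes are the 15 members with the strongest main summit, the 5 strongest on opposite-strand hosts, up to 4 each in the main list but neither replicate list, or in a replicate list only, and those nearest the 500 bp limit. Others that are named were chosen after their values were seen. The rule also asked for guide genes with names of their own that lack a summit, and there were none. Software was matplotlib 3.10.9, scipy 1.17.1, pandas 2.3.3 and numpy 2.4.6 under Python 3.11.15.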

Additional observations from a re-analysis of the deposited data

How the results depend on the processing

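Of 80 alternative values, 59 stayed within the 95% interval of the value reported, and 21 moved outside it. The median distance stayed upstream, but its interval included 0 in each replicate alone, at −31.0 to 14.0 and −46.0 to 5.00 bp. The share of hosted snoRNA genes with a summit, 27.8%, was 22.2% with only summits at or above the list's median signal, 21.8% with a window of 250 bp, 36.6% with 1000 bp, 19.9% with each summit given to the nearest gene 5′ end, and 22.2% by overlap of the peak with the gene body. From the list of 1 replicate alone it was 20.8% to 27.8%. Among members with a host start within 500 bp, the share with a summit, 39.0%, was 23.7%, 23.7%, 54.2%, 22.0% and 25.4% under those 5 settings. It was 25.4% to 30.5% from 1 replicate. For same-strand hosts, 26.4%, a window of 250 bp gave 19.8%, 1000 bp 36.8%, the nearest gene 18.1%, and peak overlap 20.3%, with 19.8% to 26.4% from 1 replicate. The shares for opposite-strand hosts (27.3% to 36.4% from 1 replicate) and for hosts over 500 bp away (19.1% to 26.8%) and the median distance (−29.0 to −17.0 bp) stayed within their intervals under every alternative run. In the 100 bp upstream alone, the B box GTTCNANNC, counted with or without an A box, was in 8.33% of members. In the 300 bp window it was in 14.8%. CTGCGTCTC was in 0 members in the 100 bp upstream, and the E2F type in 6.48%. On the snoRNA's strand alone the E2F type was in 7.87%. The shorter windows hold fewer positions to match, and the cause of the other moves was not tested. Sequencing depth is unknown, so a gene without a summit is only one where none was listed. No paired analysis was possible because there is 1 group and no comparison between groups.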
